A study of Sus scrofa with 6 samples.

Results

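Transcript levels of the JAK-STAT and IRF1 signalling genes STAT3, IRF1, JAK2 and SOCS3 were compared between aortic valve leaflets held at normotensive and at hypertensive cyclic pressure. The members were all probe sets of the Affymetrix Porcine Genome Array, controls aside, whose platform annotation gives exactly 1 gene symbol, that symbol being STAT3, IRF1, JAK2 or SOCS3. This gave 5 probe sets for the 4 genes, out of 10069 probe sets with 1 symbol that stand for 6765 genes. JAK2 had 2 probe sets and the other genes 1 each. The leaflets came from adult female pigs, and collagenase II had stripped their endothelium before an overnight culture in serum-containing medium. In a bioreactor, pressure then cycled at 1 Hz for 24 h between 0 and 80 mmHg in the normotensive group and between 0 and 120 mmHg in the hypertensive group, with 3 arrays in each. Both groups shared the removal of the endothelium, the serum and the antibiotic. The labels call the replicates biological but do not state whether a group held leaflets of different animals. The tests therefore rest on the spread among these 6 samples, part of which may be technical.

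Cytokines of the interleukin-6 and interferon families bind receptor chains that carry JAK kinases. The kinases phosphorylate STAT factors, which enter the nucleus and switch on target genes. STAT3 is the main factor downstream of interleukin-6. IRF1, a transcription factor whose own gene is induced by interferon gamma and NF-kB, then acts on genes of antigen presentation and antiviral defence. SOCS3 is a feedback inhibitor that binds the receptor and the kinase. Valve interstitial cells, the fibroblast-like cells of the leaflet, respond to these cytokines.

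IRF1 had the largest difference of the 4 genes, with a hypertensive signal 6.33 times the normotensive one. STAT3 was at 1.54 times. For JAK2 the probe sets differed in sign and the groups overlapped in each. SOCS3 lay near the bottom of the scale on 5 of 6 arrays and was not tested. At an adjusted p of 0.05, limma called 0 of the 14399 tested probe sets (0%), while 2436 had an unadjusted p under 0.05 (16.9%). None of the 4 genes is therefore called changed.

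Values are MAS5 signals on a linear scale, and differences are hypertensive minus normotensive on the log2 scale. Probe sets with a mean log2 signal under the 40th percentile, which corresponds to a signal of 48.5, were not tested, and 4 of the 5 members were. The hypertensive arrays were uneven. Their mean correlation with the normotensive arrays over all tested probe sets was 0.817, 0.950 and 0.895 for replicates 1, 2 and 3, against 0.958 to 0.971 among the normotensive arrays. The 3′ over 5′ ratio of GAPDH control probe sets is read as a sign of RNA integrity. For replicates 1, 2 and 3 it was 3.02, 2.11 and 7.52 in the normotensive and 3.67, 2.91 and 6.04 in the hypertensive group. Replicate 3 was the highest and replicate 2 the lowest in each group. All 10 measured markers of interstitial cells had signal on the arrays, and all 10 had lower means at hypertensive pressure, with a summed signal of 82254 to 86320 against 56569.7 to 74009.5. Of 13 endothelial markers, CLDN5, FLT1, KDR, TIE1 and VWF lay below the filter level on every array. The other untested markers, CDH5, SELE and NOS3, exceeded that level on 2 or 3 hypertensive arrays and on no normotensive one. Of the CDH5 probe sets, the brighter read 68.4, 115.3 and 84.9 on hypertensive replicates 1, 2 and 3 against at most 40.55 on a normotensive array. SELE, a selectin that inflammatory cytokines induce, read 443, 64.6 and 29.3 against at most 4.50. NOS3, the endothelial nitric oxide synthase, read 75.9, 55.8 and 28.4 against at most 48.4. The 5 that were tested summed to 2425 to 2992 and 1927 to 3771, with 1 of 5 higher. The higher one was SELP, another selectin, with a log2 difference of 2.76, and ERG, PECAM1, ENG and TEK had lower means. ERG read 1675, 1142 and 1780 at normotensive and 899, 1019 and 973 at hypertensive pressure, without overlap. PECAM1 read 436, 1396 and 409 against 425, 915 and 447. Of 13 leukocyte markers, CD3E, CD3G, ITGAM and SPI1 lay below the filter level on every array. The 9 that were tested summed to 2464 to 4537 and 1496 to 3533.5, with 4 of 9 higher. CD14, 1 of these 4, had a normotensive geometric mean of 40.7, under the filter level, and was tested only through the hypertensive group. PTPRC, a lower one, had a hypertensive geometric mean of 31.0 and was tested only through its normotensive signal. The part of these markers in the results was not tested. In whole leaflets, a change in the number of cells of a type and a change in RNA per cell cannot be told apart.

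JAK2 is the kinase that many cytokine receptors carry. The brighter JAK2 probe set had signals of 2504, 1686 and 2532 in the normotensive group (replicates 1, 2 and 3) against 2115, 1628 and 2146 in the hypertensive group. Its geometric mean was 2203 (log2 SD 0.33, n = 3) at normotensive and 1948 (log2 SD 0.22, n = 3) at hypertensive pressure. The groups overlapped, with replicate 2 the lowest array in each. The log2 difference was -0.18 (SE 0.26, adjusted p = 0.726 by limma), and the 95% interval of the ratio ran from 0.583 to 1.34. The dimmer JAK2 probe set had 578, 454 and 563 against 852, 561 and 553. Here hypertensive replicate 1 stood above all other arrays, while replicates 2 and 3 lay inside the normotensive range. The log2 difference was 0.28 (SE 0.29, adjusted p = 0.609 by limma), with a 95% interval of the ratio from 0.764 to 1.93. Both intervals hold a ratio of 1, and neither shows that JAK2 was the same at both pressures. Within an array, the log2 ratio of the dimmer to the brighter probe set was -2.12, -1.89 and -2.17 at normotensive against -1.31, -1.54 and -1.96 at hypertensive pressure. The mean ratios differed by 0.46, with overlapping groups (2-sided exact permutation test, p = 0.2, where 3 arrays against 3 can give no less than 0.1). The probe sets share 1 RefSeq accession in the annotation, and which parts of the transcript they read is not given in the sources used here.

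STAT3 carries the interleukin-6 signal to the nucleus. Its signal on replicates 1, 2 and 3 was 2296, 1982 and 2077 at normotensive pressure, against 4042, 2865 and 2994 at hypertensive pressure. All 3 hypertensive arrays lay above all 3 normotensive arrays, and replicate 1 was the highest. The geometric means were 2114 (log2 SD 0.11, n = 3) and 3261 (log2 SD 0.27, n = 3). The log2 difference of 0.63 (SE 0.23) did not pass by limma (adjusted p = 0.27), and the 95% interval of the ratio ran from 1.07 to 2.22. Groups without overlap and with higher hypertensive signal were found for 2 of the 4 tested member probe sets, STAT3 and IRF1, and for 10.4% of all tested probe sets. By unadjusted p, STAT3 stood at rank 1330 of 14399, and by the size of its difference at rank 4822. STAT3 passed when hypertensive replicate 2 was left out (log2 difference 0.72, adjusted p = 0.0461), as did 24.3% of all probe sets, 10.3% with higher signal. It also passed with array weights (0.46, adjusted p = 0.0346), as did 39.2% of all probe sets.

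**Figure D1:**
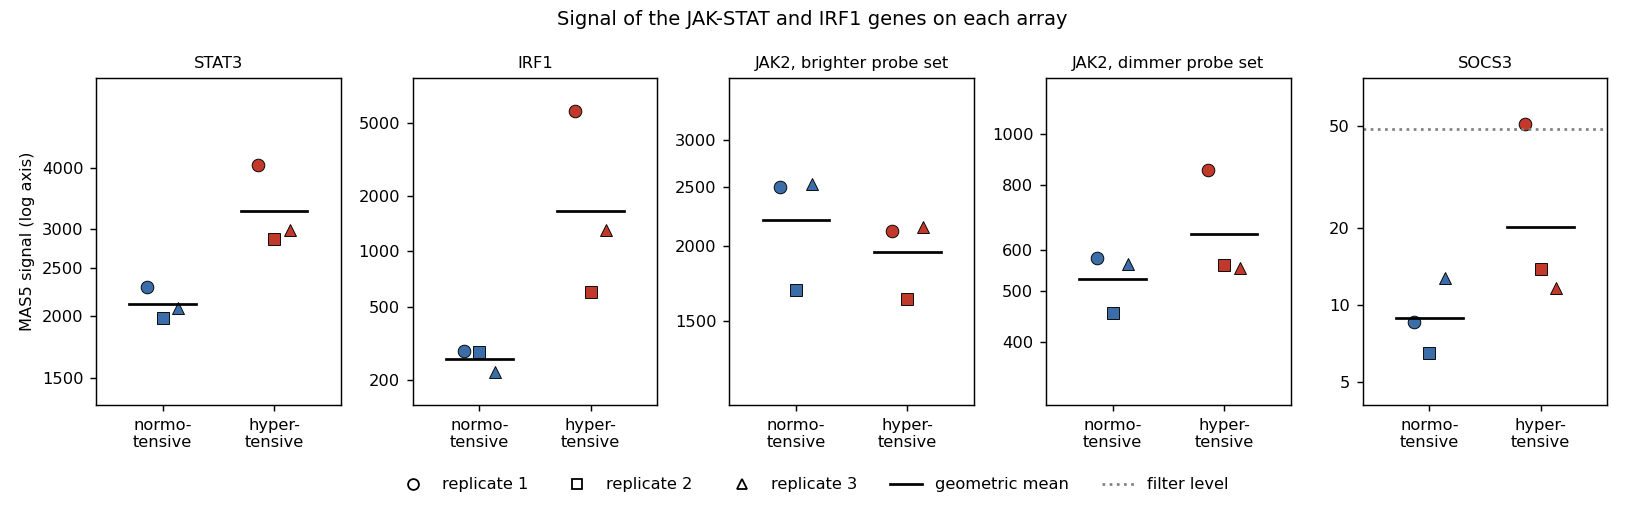
MAS5 signal of each member probe set (log axis) on the 3 normotensive and 3 hypertensive arrays, with the geometric mean of each group as a bar and the filter level of 48.5 as a dotted line in the SOCS3 panel. STAT3 and IRF1 show no overlap between groups, both JAK2 probe sets overlap, and SOCS3 exceeds the filter level on hypertensive replicate 1 alone.

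IRF1 activates genes of antigen presentation and of the interferon response. In the same order of replicates, the normotensive signals were 287, 284 and 219.7, against hypertensive signals of 5788, 602 and 1305. The groups did not overlap, and hypertensive replicate 2, the lowest of its group, was still above every normotensive array. The geometric means were 262 (log2 SD 0.22, n = 3) and 1657 (log2 SD 1.66, n = 3), so the spread between hypertensive arrays was far wider than that between normotensive arrays. The log2 difference was 2.66 (SE 0.72), with a 95% interval of the ratio from 2.03 to 19.8, and did not pass by limma (adjusted p = 0.237). Among the 14399 tested probe sets, IRF1 was at rank 71 by the size of its difference and at rank 339 by unadjusted p. The ratio of 6.33 was 3.39 without hypertensive replicate 1 and 10.5 without hypertensive replicate 2. IRF1 passed without hypertensive replicate 2 (adjusted p = 0.00718) and with array weights (2.38, adjusted p = 0.000899).

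**Figure D2:**
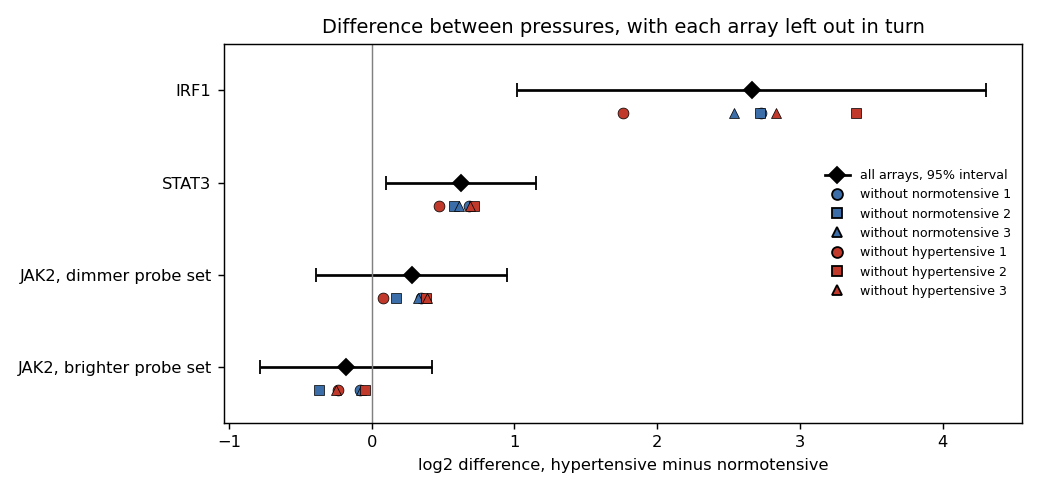
Log2 difference (hypertensive minus normotensive) of the 4 tested member probe sets, with the 95% interval from all 6 arrays as a diamond and bar, and with each array left out in turn as the points beneath. The IRF1 points spread from 1.76 to 3.39 and the STAT3 points from 0.47 to 0.72, all above 0.

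SOCS3 shuts the interleukin-6 receptor signal down after it has begun. Normotensive replicates 1, 2 and 3 had signals of 8.53, 6.51 and 12.8, against 51.0, 13.85 and 11.6 for the hypertensive replicates. Only hypertensive replicate 1 lay above the filter level of 48.5, and hypertensive replicate 3 lay below normotensive replicate 3. No ratio is given, because both group means lay under that level. A signal above the filter level on exactly 1 array was found in 1520 of the 9600 probe sets under the filter, and in 39.9% of these 1520 that array was hypertensive replicate 1.

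The other genes of the pathway were read from lists, with the brightest tested probe set standing for each gene. A gene is called annotated where a probe set has it as its only symbol. Probe sets with several symbols were not searched. Over all 5271 genes tested, 45.0% had a higher mean at hypertensive pressure and the median log2 difference was -0.07. The groups did not overlap in 9.28% of genes with higher and in 12.6% with lower signal. An unadjusted p under 0.05 was reached by 6.85% of genes with higher and by 10.2% with lower signal. None of the listed genes passed over all probe sets with all 6 arrays (limma, smallest adjusted p = 0.131). Triplets of signals below are in the order of replicates 1, 2 and 3.

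Of 26 JAK-STAT ligands, 17 were annotated and 4 were tested, of which 2 had higher means. IL6, the main inducer of STAT3 signalling, read 81.5, 101 and 29.0 at normotensive and 22566, 297 and 2104 at hypertensive pressure, a log2 difference of 5.28 (SE 1.34, adjusted p = 0.235 by limma), in the same order of hypertensive arrays as IRF1. The IL6 ratio of 38.9 was 12.7 without hypertensive replicate 1 and 111 without hypertensive replicate 2, and normotensive replicate 3 lay under the filter level. IL15, a cytokine for lymphocytes, had a log2 difference of 0.96 (SE 0.41), with groups that overlapped. IL10, an anti-inflammatory cytokine that also acts through STAT3, was at -0.48 and IFNA1 at -0.20. The interferons IFNG and IFNB1 lay below the filter level on every array, at most at 46.1 and 31.1. Of the 13 ligands under the filter, CSF2, CSF3, IL12A and LIF exceeded its level on hypertensive replicate 1 alone, the array on which SOCS3 did so. LIF, an interleukin-6 family cytokine, read 543.9 there and between 17.2 and 31.7 elsewhere, and CSF3, the granulocyte growth factor, read 699.7 there and at most 39.951 elsewhere.

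Of 30 receptor chains, 15 were annotated and 10 were tested. Of these, 6 had higher and 4 lower means, with a median log2 difference of 0.38, and 4 had groups without overlap, all higher. IL27RA, a chain of the interleukin-27 receptor, read 1271, 1355 and 1236 at normotensive and 5014, 3724 and 2615 at hypertensive pressure, a log2 difference of 1.51 (SE 0.28). IFNAR2, a chain of the type I interferon receptor, read 532, 486 and 492 against 1633, 904 and 942, a log2 difference of 1.15 (SE 0.31). In both genes the groups did not overlap, and a further IFNAR2 probe set had the same sign. IFNAR1, the other chain of the type I interferon receptor, was at 0.11 (SE 0.26), with groups that overlapped. IFNGR1, a chain of the interferon gamma receptor, was at 0.64 (SE 0.25), without overlap. IL4R, which signals to STAT6, had a log2 difference of 1.37 (SE 0.45), also with no overlap. GHR, the growth hormone receptor that uses JAK2, read 111, 173 and 113 at normotensive and 24.9, 119 and 24.5 at hypertensive pressure, so that hypertensive replicate 2 lay inside the normotensive range. Its hypertensive geometric mean of 41.7 lay under the filter level, so GHR was tested only through its normotensive signal and no ratio is given. The interleukin-6 receptor gene IL6R lay below the filter level on every array, and no probe set had IL6ST as its only symbol.

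Among the other kinases and STAT factors, 8 were tested, 5 with higher and 3 with lower means. STAT2, a factor of the type I interferon signal, read 283, 342 and 221 at normotensive and 1281, 409 and 593 at hypertensive pressure. Its log2 difference was 1.29 (SE 0.44), and that of STAT5A, a factor of growth hormone and interleukin-2 signals, was 0.99 (SE 0.31), without overlap in either. STAT5A had 3 tested probe sets, of which 2 agreed in sign. STAT5B had the lowest log2 difference of the list, -0.66 (SE 0.51). It read 593, 740 and 506 at normotensive and 230, 905 and 272 at hypertensive pressure, with groups that overlapped. STAT6 was at 0.49 and the kinase TYK2 at -0.37, TYK2 being the 1 gene of the list with all hypertensive arrays below the normotensive ones. JAK1 and JAK3 had log2 differences of 0.09 and -0.25. The list median was 0.26, and it turned to -0.02 with array weights.

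All 7 tested genes among 17 other inhibitors of the pathway had higher means, with a median log2 difference of 0.64, and the groups did not overlap in 3. SOCS6, a relative of SOCS3, read 267, 273 and 297 at normotensive and 825, 341 and 792 at hypertensive pressure, a log2 difference of 1.12 (SE 0.38). PTPN2, a phosphatase that removes phosphate from JAK1 and STAT factors, had a log2 difference of 0.60 (SE 0.21) in its brighter probe set, and its other tested probe set had the same sign. PTPN1, a related phosphatase that acts on JAK2, was at 0.64 (SE 0.28), also with no overlap. USP18, an inhibitor at the type I interferon receptor, read 758, 1157 and 639 against 6020, 942 and 2521, where hypertensive replicate 2 lay inside the normotensive range. Its ratio of 2.94 was 1.87 without hypertensive replicate 1 and 4.73 without hypertensive replicate 2. SOCS1 read 51.5, 76.4 and 55.8 at normotensive and 189, 63.5 and 55.1 at hypertensive pressure, so its brightest probe set stood out on hypertensive replicate 1 alone.

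Of the 8 other interferon regulatory factors, the 5 that were annotated were all tested, and all 5 had higher means, with a median log2 difference of 0.49. IRF7, the factor that amplifies type I interferon production, read 44.5, 84.3 and 72.1 at normotensive and 631, 149.9 and 148 at hypertensive pressure. Its log2 difference was 1.90 (SE 0.59), and its ratio of 3.73 was 2.31 without hypertensive replicate 1. IRF8, a factor of myeloid cells that interferon gamma also induces, read 154, 203 and 192 against 1044, 259 and 510.5, a log2 difference of 1.51 (SE 0.48). IRF2, which competes with IRF1 for its sites, was at 0.49 (SE 0.28), and IRF9, the partner of STAT2, at 0.41 (SE 0.37). The groups overlapped for IRF9 and IRF3 and not for IRF7, IRF8 and IRF2.

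**Figure D3:**
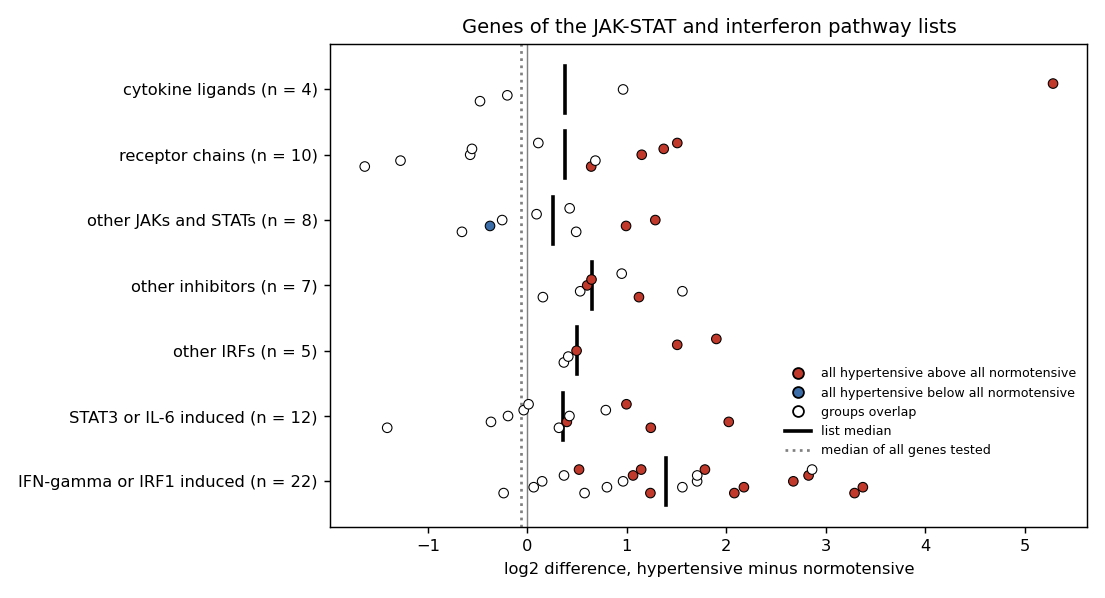
Log2 difference (hypertensive minus normotensive) of each tested gene in 7 pathway lists, 1 point a gene, filled where the groups do not overlap, with the list median as a black bar and the median of all genes tested, -0.07, as a dotted line. Points of the list induced by interferon gamma or IRF1 reach furthest to the right as a group, with a median of 1.40.

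Genes known to be induced by STAT3 or interleukin-6 were mixed. Of 22 listed, 12 were tested, 8 with higher and 4 with lower means, a median log2 difference of 0.36, and 4 had groups without overlap, all higher. The adhesion molecule ICAM1 had a log2 difference of 2.02 (SE 0.35), the transcription factor CEBPB 1.24 (SE 0.28) and the metalloproteinase inhibitor TIMP1 1.00 (SE 0.25), all without overlap. VEGFA, the angiogenic growth factor, read 9877, 9991 and 9058 at normotensive and 2897, 10584.5 and 1562 at hypertensive pressure, a log2 difference of -1.41 (SE 0.59). Its ratio of 0.377 was 0.221 without hypertensive replicate 2 and 0.575 without hypertensive replicate 3. MYC, MCL1 and HIF1A were at 0.79, 0.40 and 0.42, and FOS at -0.37.

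Of 34 genes known to be induced by interferon gamma or IRF1, 23 were annotated and 22 were tested. Higher means were found in 21 of the 22, with a median log2 difference of 1.40 where that of all genes was -0.07. The groups did not overlap in 11, all higher, and 13 had an unadjusted p under 0.05, all higher. TAP1, the peptide transporter of class I presentation, read 592, 904 and 544 at normotensive and 13349, 3021 and 6723 at hypertensive pressure, a log2 difference of 3.29 (SE 0.50). UBD, a ubiquitin-like modifier, had a log2 difference of 3.37 (SE 0.52), and its ratio of 10.3 was 16.1 without hypertensive replicate 2. XAF1, an apoptosis regulator, was at 2.08 (SE 0.36). CXCL9, a T-cell chemokine, read 28.5, 27.6 and 52.1 at normotensive and 394, 150.3 and 179 at hypertensive pressure. The normotensive geometric means of CXCL9 and TNFSF10, at 34.5 and 38.7, lay under the filter level. These genes were therefore tested only through the hypertensive group and count among those with higher means. CXCL9 is also counted in the 11 without overlap and in the 13 with an unadjusted p under 0.05. In TAP1 and UBD the order of the hypertensive arrays was that of IRF1, with replicate 1 highest and replicate 2 lowest. Without hypertensive replicate 2, 12 of the 22 genes passed over all probe sets, all higher and CXCL9 among them, against 10.3% of all genes tested. The genes of this list overlap with interferon and antigen presentation genes that earlier analysis of these arrays had already shown, so the list is no independent support for a change in IRF1.

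Relative to the normotensive mean, IRF1 stood at 4.47, 1.20 and 2.32 on the log2 scale on hypertensive replicates 1, 2 and 3, and STAT3 at 0.94, 0.44 and 0.50. The median of the list induced by interferon gamma or IRF1 was at 2.26, 0.81 and 1.00 on the same arrays, and between -0.25 and 0.21 on the normotensive ones. The list of other inhibitors was at 1.57, 0.29 and 0.59, and that of STAT3 or interleukin-6 induced genes at 0.82, 0.17 and 0.06. Replicate 1 was the highest hypertensive array in 75.9% of the 489 genes with higher signal and no overlap, and replicate 2 the lowest in 64.4%. The full order seen in IRF1 and STAT3, with replicate 3 between the others, was found in 265 of them (54.2%).

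**Figure D4:**
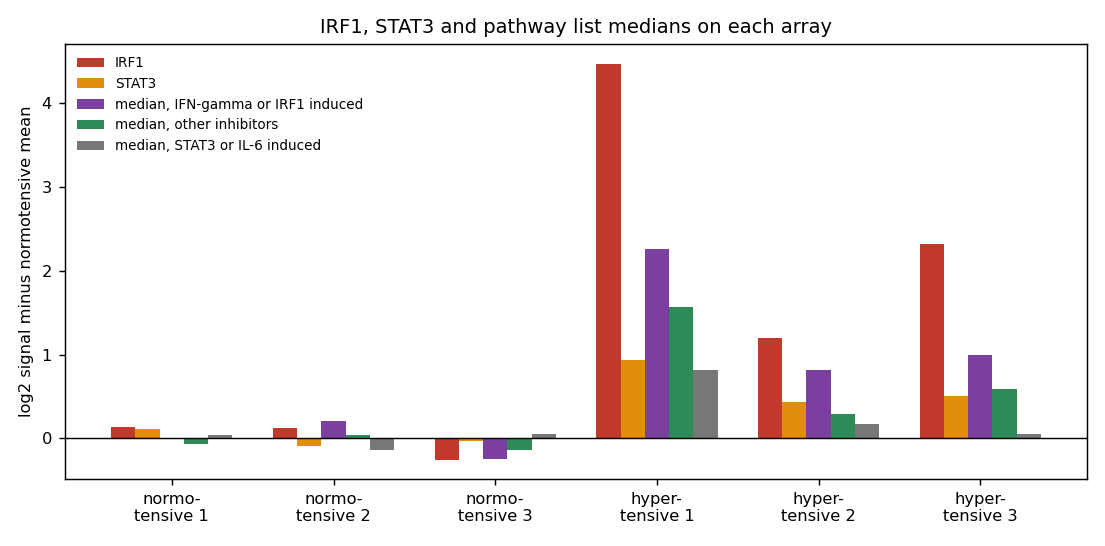
Log2 signal minus the normotensive mean on each of the 6 arrays, for IRF1, STAT3 and the medians of 3 pathway lists. IRF1 reaches 4.47 on hypertensive replicate 1 and 1.20 on replicate 2, and the medians of the lists are also highest on hypertensive replicate 1.

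The profile across the 6 arrays was compared between each member and all tested genes by the root mean square difference of log2 signals, each set to 0 at its normotensive mean. For STAT3 the nearest genes were CDK7, a cell cycle and transcription kinase, at 0.014, then LOC100621388 at 0.060 and the centrosome gene CEP192 at 0.062. For IRF1 they were the monocyte chemokine CCL8 at 0.26, the cytokine IL1A at 0.27 and IFIT2, an interferon-induced antiviral gene, at 0.32. CCL8 read 402, 644 and 435 at normotensive and 8454, 1184 and 2780 at hypertensive pressure. The brighter JAK2 probe set was nearest to NKIRAS2, an inhibitor of NF-kB, at 0.093, to SMN1 at 0.10 and to INIP at 0.11. No neighbours are given for SOCS3, which lay under the filter level on 5 of the 6 arrays. Distances grow with the spread of a member, so those of STAT3 and IRF1 are not compared.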

How the data were processed

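The deposited table gives each probe set's signal intensity on each of the 6 arrays, not log-transformed. GCOS and MAS5 are the tools that the submitters' processing notes name, without versions in the sources used here. A 2% trimmed mean of 500.11 to 500.131 on every array is what scaling to a shared level gives, and such scaling would hide a shift of most transcripts. Per the labels' protocols, 70 ng of total RNA was amplified over repeated in vitro transcription and 10 µg of cRNA was hybridised. Of 24123 probe sets, 124 controls were left out. Symbols came from the platform annotation: 10069 probe sets had 1, 198 several and 13732 none.

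After a log2 transform without pseudocount, the 14399 probe sets at or above the 40th percentile of mean log2 signal were kept, and limma 3.58.1 under R 4.3.3 compared the groups (lmFit, eBayes with an intensity trend, 2-sided, Benjamini-Hochberg over all kept probe sets, threshold 0.05). The fit was tested on simulated data. The number of arrays limits the precision. Named genes were the members, up to 4 genes of smallest unadjusted p per list and the 3 nearest profiles per member (not printed for SOCS3); others given in lists or as values were chosen after their values were seen. The members and lists were chosen with earlier results of these data known. Of 43 genes named by the rule, 9 had further kept probe sets, which agreed in sign in 6. Alternatives were a replicate block, 2 normalizations, 2 filters, a pseudocount of 16, array weights, no intensity trend, each array left out and the mean of a gene's probe sets. Deviations from the group means correlated best between arrays of the same replicate number, at 0.059 to 0.226. The labels state no pairing, and the main fit held none. No sequences of the members were used here.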

Additional observations from a re-analysis of the deposited data

How the results depend on the processing

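The count of probe sets past an adjusted p of 0.05 was 0 in all fits with 6 arrays except that with array weights (5639), and 0 to 3505 with an array left out, the highest without hypertensive replicate 2; without normotensive replicate 2 it was 1. With an array left out, the log2 difference of STAT3 ran from 0.47 to 0.72, that of IRF1 from 1.76 to 3.39 and that of the brighter JAK2 probe set from -0.37 to -0.05. With array weights STAT3 (0.46) and IRF1 (2.38) passed. The weights were 0.289, 0.195 and 2.38 for hypertensive replicates 1, 2 and 3 and 6.96 for normotensive replicate 1. The mean of both JAK2 probe sets was 0.052, of the opposite sign to the brighter one, since the dimmer one is positive. The median of the other kinases and STAT factors turned to -0.019 with array weights; the cause was not tested. Under the alternatives, the medians of the 7 lists stayed within the spread between arrays in 96 cases and moved by more in 8 with the same sign, 3 of them up and 5 down; among these, the list of genes induced by interferon gamma or IRF1 had 0.81 without hypertensive replicate 1. With the filter removed, SOCS3 had an adjusted p of 0.508 by limma.

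The replicate number as a block left the count at 0 and gave an adjusted p of 0.222 for STAT3 (0.63) and 0.15 for IRF1 (2.66). Deviations from the group means correlated at 0.059, 0.072 and 0.226 between arrays of the same number, and each array correlated best with its own number, a hint from the data and not from the design. The block changed no call. The level of 48.5 limits what can be read for SOCS3 and the other genes under the filter. It also limits CXCL9, TNFSF10, CD14 and normotensive replicate 3 of IL6 and IL15, and GHR and PTPRC at hypertensive pressure. Normotensive replicate 1 of IRF7 lay under it as well, and the normotensive signals of UBD lay just above it.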

Other observations

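GBP1 and WARS, chosen after their values were seen, are induced by interferon gamma in many cells, GBP1 as a guanylate-binding protein and WARS as the tryptophan tRNA ligase. GBP1 read 564, 802 and 639 on the normotensive and 17425, 586 and 10853 on the hypertensive arrays in its brightest probe set, and WARS read 1336, 1233 and 1383 against 13135, 833 and 5314. Hypertensive replicate 2 lay inside the normotensive range in GBP1 and below it in WARS, whereas IRF1 read 602 on that array against at most 287 on a normotensive one. IL18BP, the decoy receptor of interleukin-18, read 476, 462 and 351 against 8171, 1959 and 1718, without overlap. In the list of genes induced by interferon gamma or IRF1, hypertensive replicate 2 lay at or below the highest normotensive array in 6 of 22 genes. Hypertensive replicate 1 was the highest of its group in 19 of 22. Among the 489 genes with higher signal and no overlap, replicate 1 was the highest in 75.9%. The share over all tested genes was not computed for either count, so neither is read as particular to this list.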
